A study of Mus musculus with 8 samples.

Results

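The genes described here are 32 genes of the G2 phase and of mitosis, chosen by name from a fixed list (Mki67, Top2a, Cdk1, cyclins, mitotic kinases, kinetochore, spindle and cytokinesis genes). All 32 were among the 25124 genes of the deposited tables, and all 32 were among the 19146 genes tested. They were read in bulk RNA-seq of mouse spleen CD4 T cells from animals carrying both a KLF2(GFP) and a FOXP3(RFP) reporter. KLF2 is a transcription factor of resting, recirculating T cells. Cells negative for the FOXP3 reporter and CD44hi were sorted by the KLF2 reporter, so KLF2+ and KLF2- name sorted populations of the same reporter mice and not a gene deletion. The stimulated groups were KLF2+ and KLF2- cells given anti-CD3 (2.5 µg/mL) and anti-CD28 (1.25 µg/mL) for 48 h, antibodies that trigger the antigen receptor and the CD28 costimulatory receptor. The unstimulated groups were KLF2+ and KLF2- cells kept without stimulus for the same 48 h. Each of the 4 groups had 2 libraries, numbered 1 and 2 in KLF2+ cells and 3 and 4 in KLF2- cells. The sources used here do not give the age or number of mice or any pooling. Nothing in the labels says that the 2 libraries of a group came from different mice or cultures. The p-values therefore measure only how far these libraries spread, and that spread may be technical.

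A cell enters mitosis when cyclin-dependent kinase 1, bound to a cyclin of the A or B type, is switched on. Polo-like and Aurora kinases then act with it while chromosomes condense, kinetochores attach them to the spindle, and a checkpoint delays the anaphase-promoting complex until every chromosome is attached. Most of these genes are transcribed in G2 and M phase and are low in resting cells, and a resting T cell enters the cycle after its antigen receptor and CD28 are engaged.

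The libraries differed in depth. Reads over exons numbered 21.0 and 36.6 M (M, mega) for stimulated KLF2+ cells, 8.27 and 17.8 M for unstimulated KLF2+ cells, 4.53 and 2.99 M for stimulated KLF2- cells and 7.34 and 8.62 M for unstimulated KLF2- cells. Background was estimated from olfactory and vomeronasal receptor genes, genes of sensory neurons. It came to 1.24 and 0.401% of exon reads in stimulated KLF2+ cells, 7.06 and 2.61% in unstimulated KLF2+ cells, 11.4 and 20.1% in stimulated KLF2- cells and 7.80 and 7.09% in unstimulated KLF2- cells. Stimulated KLF2- replicate 4, with the fewest exon reads and the highest background, stood apart, and results that rest on it are given with and without it. All 8 T cell markers were present in every library, with Cd4 between 475 and 1046 CPM. CPM are counts scaled to library depth and to edgeR's TMM factor, which differed between the groups. Of the 2 CD8 T cell markers, Cd8a stayed between 0.113 and 2.45 CPM and Cd8b1 between 11.1 and 24.1 CPM. Foxp3 read between 5.23 and 21.3 CPM. Summed over 10 myeloid markers, the level was 55.7 to 89.4 CPM in stimulated KLF2+ cells, 905 to 1642 CPM in unstimulated KLF2+ cells, 45.8 to 71.3 CPM in stimulated KLF2- cells and 46.0 to 50.2 CPM in unstimulated KLF2- cells. C1qb and S100a8 were at 0 in at least 1 KLF2- library.

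Mitosis genes were at their highest in stimulated KLF2+ cells. The summed level of the 32 genes was 2739 and 2369 TPM (a level scaled to transcript length and library depth) in stimulated KLF2+ cells and 218 and 155 TPM in unstimulated KLF2+ cells. It was 1232 and 367 TPM in stimulated KLF2- cells and 262 and 257 TPM in unstimulated KLF2- cells. Both stimulated KLF2+ libraries lay above the other 6, and the stimulated KLF2- libraries differed from each other by more than either unstimulated pair did. The median CPM of the 32 genes followed the same order, with 338 and 299.8 CPM in stimulated KLF2+ cells, 12.9 and 10.5 CPM in unstimulated KLF2+ cells, 62.2 and 17.1 CPM in stimulated KLF2- cells and 14.3 and 14.4 CPM in unstimulated KLF2- cells. In bulk RNA, fewer cells in mitosis and less mitotic RNA per cell cannot be told apart.

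**Figure D1:**
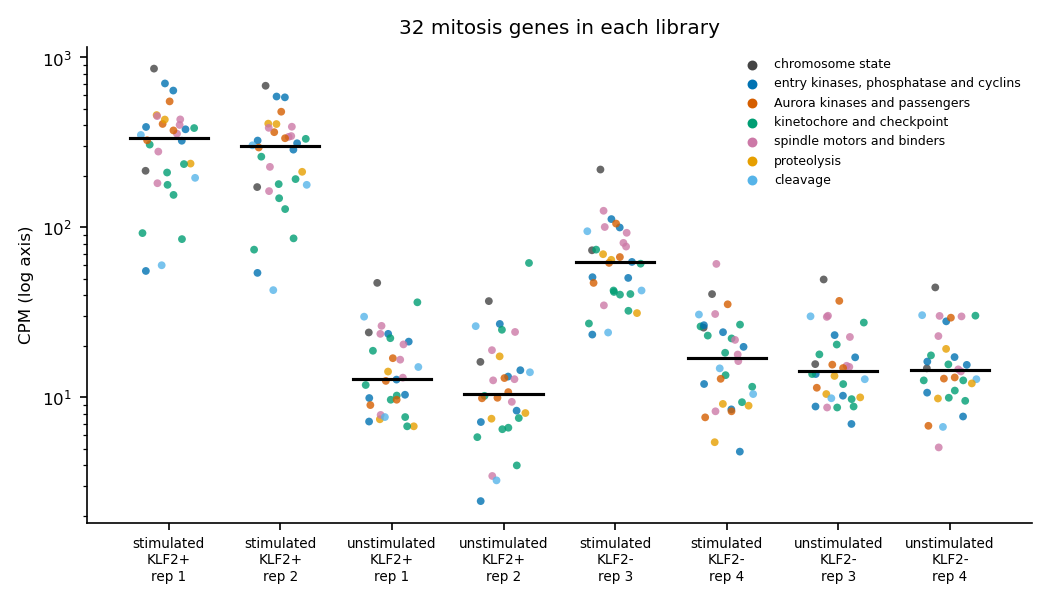
Levels of the 32 mitosis genes in each of the 8 libraries, in CPM on a log axis. Each point is 1 gene in 1 library, coloured by the role of the gene, and the bar is the median, which is 338 and 299.8 CPM in stimulated KLF2+ cells and 62.2 and 17.1 CPM in stimulated KLF2- cells.

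The first comparison asks how KLF2+ cells responded to stimulation. All 32 mitosis genes rose in stimulated against unstimulated KLF2+ cells in the quasi-likelihood test of edgeR, with Benjamini-Hochberg adjustment over all genes, and 19.7% of genes were called higher. The median log2 fold change was 4.33 over the 32 genes and -0.25 over all genes tested. Log2 fold changes ran from 2.86 for Cenpa to 5.86 for Ube2c, and the largest adjusted p was 0.00704, for Cenpa. Both stimulated libraries lay above both unstimulated ones in every one of the 32 genes, which was so in 35.2% of all genes on CPM and in 17.6% on TPM. Across the 15 alternatives tried, all 32 were called in 14, and Cenpa alone was not called without unstimulated KLF2+ replicate 1 (adjusted p = 0.0805), where 6.96% of all genes were called higher. All 10 myeloid markers fell in the same comparison, and their part in the result was not tested.

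Genes that set chromosome state and mitotic entry were measured first. Mki67 encodes Ki-67, which coats mitotic chromosomes and is the usual marker of cycling cells. Its level was 215 and 173 CPM in stimulated KLF2+ cells and 24.1 and 16.2 CPM in unstimulated KLF2+ cells, which gave a log2 fold change of 3.28 ± 0.43 (SE; n = 2 in each group; adjusted p = 0.00128). Top2a, the topoisomerase that untangles sister DNA, stood at 859.9 and 682 CPM in stimulated KLF2+ cells and 47.2 and 36.8 CPM in unstimulated KLF2+ cells, a log2 fold change of 4.20 ± 0.64 (SE). Cdk1 encodes the mitotic kinase itself. It read 378 and 313 CPM in stimulated KLF2+ cells against 21.3 and 14.4 CPM in unstimulated KLF2+ cells, a log2 fold change of 4.28 ± 0.47 (SE). Ccnb1 and Ccnb2 encode the B-type cyclins that switch Cdk1 on, and they rose more than the median member. Ccnb1 was at 639 and 583 CPM in stimulated KLF2+ cells and 12.7 and 13.3 CPM in unstimulated KLF2+ cells (log2 fold change 5.55 ± 0.88, SE). Ccnb2 was at 390.1 and 324 CPM in stimulated KLF2+ cells and 9.91 and 7.16 CPM in unstimulated KLF2+ cells (log2 fold change 5.40 ± 0.57, SE). Cdc25c, the phosphatase that removes inhibitory phosphates from Cdk1, was at 55.4 and 54.0 CPM in stimulated KLF2+ cells and 7.20 and 2.45 CPM in unstimulated KLF2+ cells (log2 fold change 3.54 ± 0.43, SE). In each of these 6 genes the stimulated and unstimulated libraries were separate. Ccna2, the A-type cyclin of S phase and G2, and Plk1, the polo-like kinase, rose by log2 fold changes of 4.67 ± 0.59 and 5.03 ± 0.77 (SE).

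Aurora kinases and their chromosomal passenger partners rose together, with a narrow range of log2 fold changes from 5.03 to 5.11. Aurka, the Aurora kinase of centrosomes, was at 326 and 295 CPM in stimulated KLF2+ cells and 9.01 and 9.87 CPM in unstimulated KLF2+ cells. Aurkb, the kinase of the passenger complex, had a log2 fold change of 5.11 ± 0.59 (SE). Birc5 encodes survivin, a subunit that places the passenger complex on centromeres, and its level was 552 and 479.6 CPM in stimulated KLF2+ cells and 17.0 and 13.0 CPM in unstimulated KLF2+ cells. Cdca8, or borealin, another passenger subunit, was at 372 and 335 CPM in stimulated KLF2+ cells and 9.68 and 10.7 CPM in unstimulated KLF2+ cells. The log2 fold changes of Aurka, Birc5 and Cdca8 were 5.03 ± 0.66, 5.11 ± 0.48 and 5.11 ± 0.73 (SE), with no overlap between stimulated and unstimulated libraries.

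Kinetochore and checkpoint genes held the smallest response. Cenpa, the histone H3 variant that marks centromeres, was at 384 and 332 CPM in stimulated KLF2+ cells and 36.2 and 61.8 CPM in unstimulated KLF2+ cells, a log2 fold change of 2.86 ± 0.58 (SE). Its unstimulated level was the highest of the 32 genes per length in KLF2+ cells, at 28.2 and 34.9 TPM, and that in stimulated KLF2+ cells was 159 and 136 TPM. Cenpf, a long coiled-coil protein of the outer kinetochore, was at 85.3 and 86.2 CPM in stimulated KLF2+ cells and 7.65 and 3.98 CPM in unstimulated KLF2+ cells (log2 fold change 3.91 ± 0.33, SE). Its unstimulated reads were at 0.713 and 0.788 times the background level, so its unstimulated KLF2+ level was under the background estimate. Ndc80 and Nuf2 encode subunits of the complex that grips spindle microtubules, and their log2 fold changes were 3.04 ± 0.35 and 4.90 ± 0.54 (SE). The checkpoint genes Bub1, Bub1b and Ttk, whose products hold back anaphase, rose by 4.35 ± 0.46, 4.31 ± 0.50 and 3.26 ± 0.33 (log2, SE). Cenpe, a kinesin of the kinetochore, rose by 4.09 ± 0.34 (log2, SE).

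Spindle genes rose with a median log2 fold change of 4.53. Tacc3, which strengthens spindle fibres, was at 432 and 391 CPM in stimulated KLF2+ cells and 20.5 and 24.3 CPM in unstimulated KLF2+ cells (log2 fold change 4.20 ± 0.63, SE). Kif2c, a kinesin that takes microtubule ends apart to correct attachments, was at 182 and 164 CPM in stimulated KLF2+ cells and 7.88 and 3.45 CPM in unstimulated KLF2+ cells (log2 fold change 4.97 ± 0.63, SE). Libraries of the stimulated and unstimulated groups did not overlap in either gene. Kif11, the motor that pushes spindle poles apart, rose by 4.30 ± 0.55, and Tpx2, an activator of Aurora A, by 4.76 ± 0.55 (log2, SE). Nusap1, a microtubule-bundling protein, rose by 4.85 ± 0.56, and Hmmr, a hyaluronan receptor that also acts at the spindle, by 3.72 ± 0.37 (log2, SE).

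The largest response was that of a proteolysis gene, and the 3 cleavage genes were below the median response of the 32. Ube2c is the ubiquitin-conjugating enzyme of the anaphase-promoting complex. Its level was 458 and 408 CPM in stimulated KLF2+ cells and 7.43 and 7.49 CPM in unstimulated KLF2+ cells, a log2 fold change of 5.86 ± 0.87 (SE; adjusted p = 0.00214). Per length it was also the most abundant of the 32 genes in stimulated KLF2+ cells, at 318 and 279.7 TPM, against 9.67 and 7.08 TPM in unstimulated KLF2+ cells. Cdca3, known from frog extracts to promote the breakdown of the mitotic inhibitor Wee1, was at 237 and 212 CPM in stimulated KLF2+ cells and 6.75 and 8.08 CPM in unstimulated KLF2+ cells (log2 fold change 4.91 ± 0.48, SE). Cdc20, the activator of the anaphase-promoting complex, rose by 4.72 ± 0.69 (log2, SE). Among cleavage genes, Kif20a, a kinesin that carries the passenger complex to the midzone, was at 350.0 and 304 CPM in stimulated KLF2+ cells and 29.8 and 26.2 CPM in unstimulated KLF2+ cells (log2 fold change 3.55 ± 0.43, SE). Anln, the anillin scaffold of the contractile ring, was at 59.9 and 42.8 CPM in stimulated KLF2+ cells and 7.65 and 3.25 CPM in unstimulated KLF2+ cells (log2 fold change 3.26 ± 0.45, SE). Kif23, the kinesin of centralspindlin, rose by 3.68 ± 0.49 (log2, SE), and libraries of the stimulated and unstimulated groups were separate in all 6 of these genes.

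**Figure D2:**
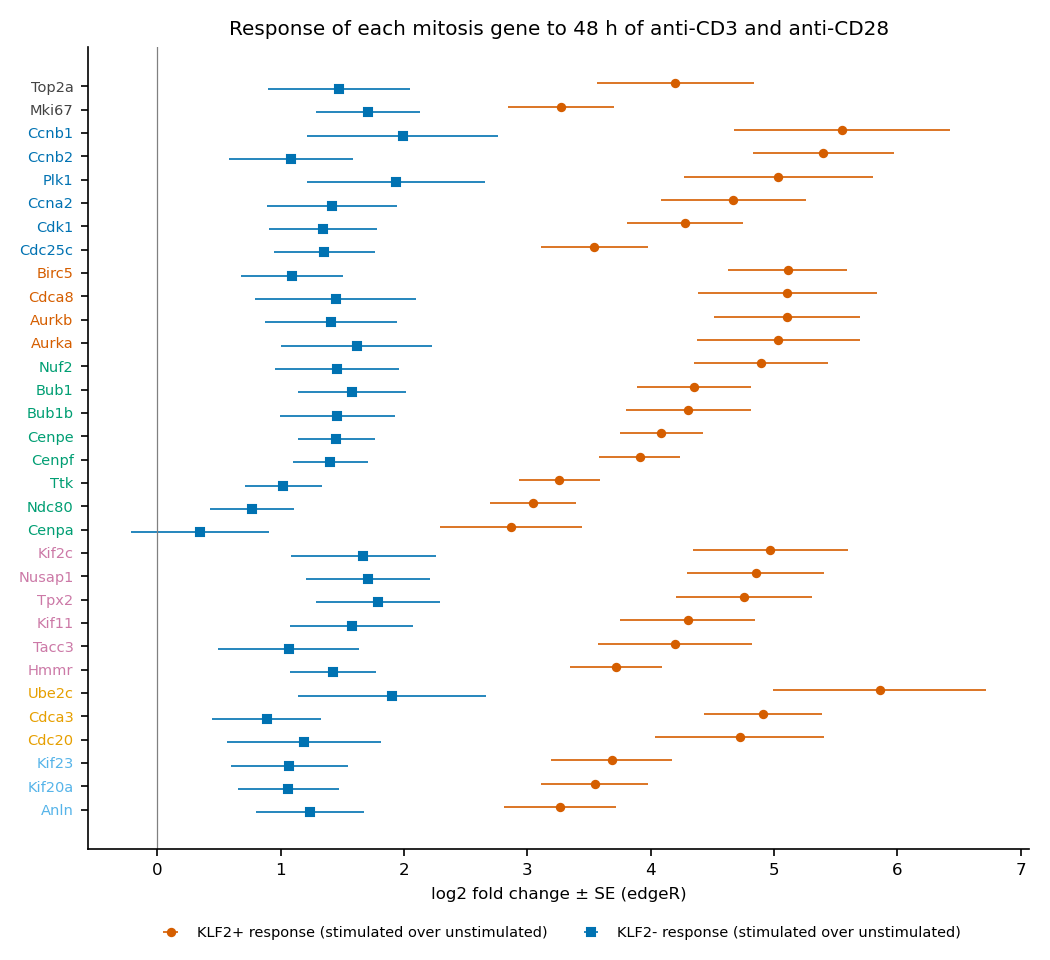
Log2 fold change of stimulated over unstimulated cells for each of the 32 genes in KLF2+ and in KLF2- cells, with bars of 1 SE from the edgeR fit (n = 2 per group). Every KLF2+ value lies above its KLF2- value, from 2.86 for Cenpa to 5.86 for Ube2c in KLF2+ cells, and from 0.35 for Cenpa to 1.99 for Ccnb1 in KLF2- cells.

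Because the 32 genes moved together in KLF2+ cells, their promoters were read for 2 short motifs known from G2/M genes. The CHR (cell cycle genes homology region), searched as TTTGAA, is bound by the MuvB complex, and the CCAAT box, searched as CCAAT, is bound by NF-Y. Both were searched on both strands over 300 bases, from 250 before the gene start to 50 after it, in RefSeq promoters of build GRCm38.p6. Of the 32 genes, 27 had a promoter in that table, and Kif20a, Tpx2, Aurkb, Cdc25c and Ccna2 did not. The start used for Kif2c differed from that in the deposited table, and the other 26 were equal. Windows of 250 bases, from 220 before the gene start to the 30th transcribed base, are shown for 6 genes that the results turn on, 5′ to 3′ on the gene's strand. Capitals mark CHR matches (TTTGAA or, on the other strand, TTCAAA) and CCAAT boxes (CCAAT or ATTGG). The windows were chr7:135716350-135716599 (minus strand) for Mki67, chr11:99024160-99024409 (minus strand) for Top2a, chr10:69352883-69353132 (minus strand) for Cdk1, chr13:100786457-100786706 (minus strand) for Ccnb1, chr9:70421525-70421774 (minus strand) for Ccnb2 and chr2:164769709-164769958 (plus strand) for Ube2c.
Mki67: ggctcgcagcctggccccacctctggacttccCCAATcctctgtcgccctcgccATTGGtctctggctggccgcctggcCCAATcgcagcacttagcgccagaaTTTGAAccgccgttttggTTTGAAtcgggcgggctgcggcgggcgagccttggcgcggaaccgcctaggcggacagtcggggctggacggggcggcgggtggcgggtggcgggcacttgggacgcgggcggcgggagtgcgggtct
Top2a: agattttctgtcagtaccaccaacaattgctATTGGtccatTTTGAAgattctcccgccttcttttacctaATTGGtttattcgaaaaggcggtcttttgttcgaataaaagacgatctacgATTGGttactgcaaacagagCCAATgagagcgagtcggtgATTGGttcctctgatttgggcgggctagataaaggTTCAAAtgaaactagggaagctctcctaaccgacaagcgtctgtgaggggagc
Cdk1: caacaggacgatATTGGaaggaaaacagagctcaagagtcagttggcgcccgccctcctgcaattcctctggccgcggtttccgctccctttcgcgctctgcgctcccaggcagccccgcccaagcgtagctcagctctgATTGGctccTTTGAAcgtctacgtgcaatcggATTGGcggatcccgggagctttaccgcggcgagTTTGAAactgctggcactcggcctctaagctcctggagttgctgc
Ccnb1: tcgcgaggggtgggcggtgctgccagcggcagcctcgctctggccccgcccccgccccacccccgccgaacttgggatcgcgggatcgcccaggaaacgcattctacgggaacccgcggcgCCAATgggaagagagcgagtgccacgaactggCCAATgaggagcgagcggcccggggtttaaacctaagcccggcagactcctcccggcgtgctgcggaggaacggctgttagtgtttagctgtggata
Ccnb2: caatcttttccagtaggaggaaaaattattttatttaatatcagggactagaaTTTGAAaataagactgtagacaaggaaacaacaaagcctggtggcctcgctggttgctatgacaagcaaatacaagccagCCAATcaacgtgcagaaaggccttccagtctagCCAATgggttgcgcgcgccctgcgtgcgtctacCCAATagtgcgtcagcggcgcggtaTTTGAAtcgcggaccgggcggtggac
Ube2c: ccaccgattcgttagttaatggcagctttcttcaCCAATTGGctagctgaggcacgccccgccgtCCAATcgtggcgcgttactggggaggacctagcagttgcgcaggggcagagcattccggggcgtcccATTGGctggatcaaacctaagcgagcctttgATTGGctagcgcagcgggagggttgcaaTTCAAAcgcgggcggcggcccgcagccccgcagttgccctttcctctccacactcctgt

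A CHR match was present in 20 of the 27 promoters (74.1%), against 17.9% of 32851 promoters of the same length. A CCAAT box was present in 20 of 27 (74.1%), against 37.4% of all promoters, and at least 2 CCAAT boxes in 15 (55.6%, against 11.7%). Both motifs were found in 17 (63.0%, against 6.95%). The CHR matches lay near the start: 19 of the 27 promoters (70.4%, against 8.01% of all) had one that began between 100 bases before and 49 bases after it. In the shown windows, Cdk1 and Top2a carry a CHR match 15 and 23 bases before the start, with CCAAT boxes before it. Ccnb2 carries one that begins 4 bases after the start, and 3 CCAAT boxes spaced along the upstream side. Ccnb1 carries 2 CCAAT boxes and no CHR match in these letters. Birc5 was 1 of 4 promoters with a match of neither motif, which says only that these letters are not in this window. A CHR match and a CCAAT box overlapped in 1 place, in Cdca8, and the letters CCAATTGG in Ube2c count as CCAAT boxes on both strands. A match describes letters and is not evidence of binding. The median log2 fold change in KLF2+ cells was 4.29 for the 20 genes with a CHR match and 4.85 for the 7 without, so genes with the match did not have the higher median.

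**Figure D3:**
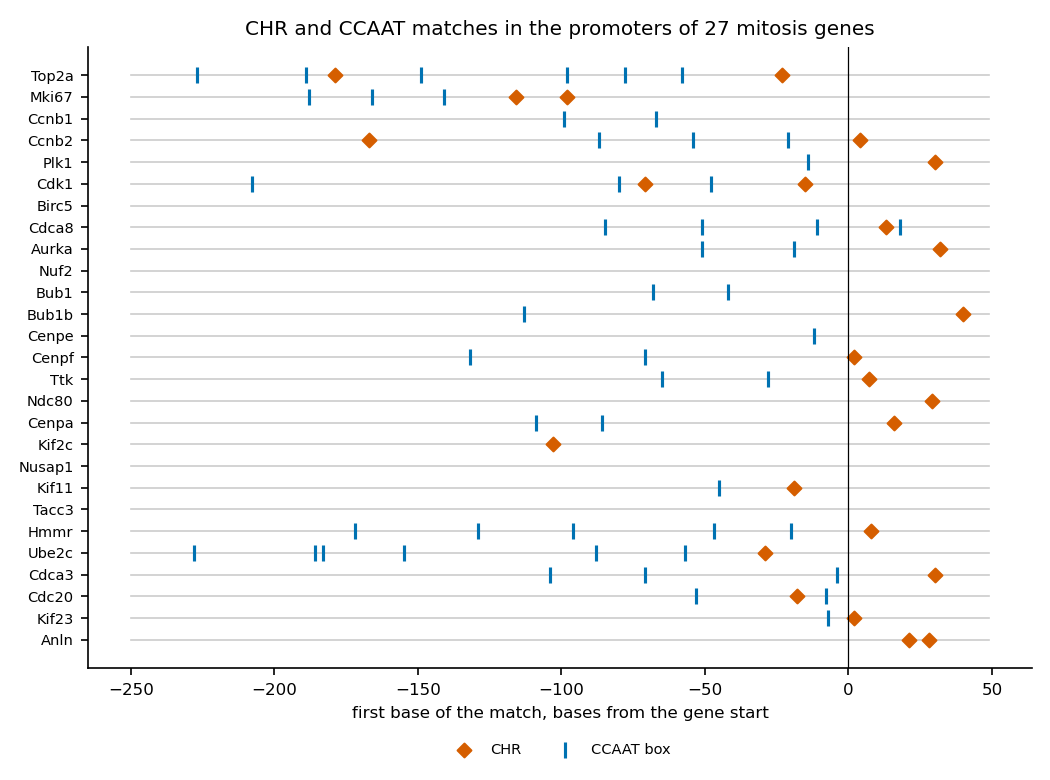
Positions of CHR (TTTGAA) and CCAAT matches on either strand in the promoters of 27 mitosis genes, in bases from the gene start. Most CHR matches, 21 of 25, begin between 100 bases before and 49 bases after the start, and the 52 CCAAT matches lie mostly upstream of it.

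The second comparison asks how KLF2- cells responded to the same stimulus. No mitosis gene was called in stimulated against unstimulated KLF2- cells, and edgeR called 0% of all genes in this comparison. At an unadjusted p under 0.05, 26 of the 32 mitosis genes and 2802 of the 19146 genes tested passed. Limma on log2(TPM + 1) also called 0, with 25 of the 32 and 4983 of all genes at an unadjusted p under 0.05. DESeq2 called 9 of the 32 higher, where it called 0.401% of genes higher. These 9 were Kif11, Cenpf, Bub1, Bub1b, Hmmr, Mki67, Tpx2, Nusap1 and Cenpe. In stimulated KLF2- replicate 4, reads of Cenpf, Mki67, Cenpe and Bub1 were 1.25, 1.33, 1.48 and 1.62 times background. Those of the rest of the 9 ran from 2.59 to 8.14 times. The median log2 fold change was 1.42 over the 32 genes and 0.06 over all genes, and the smallest adjusted p among the 32 was 0.268 in edgeR.

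The stimulated KLF2- libraries did not behave alike. In CPM, replicate 3 lay above replicate 4 in 31 of the 32 genes, or 96.9%, with Cdc25c the exception, while it did so in 45.0% of all genes and in 74.5% of genes of at least 50 CPM. In TPM it did so in 30 of the 32, with Ttk and Cdc25c the exceptions, and in 29.9% of all genes. The median CPM ratio of replicate 3 to replicate 4 was 4.06, and it ran from 0.881 for Cdc25c to 12.8 for Ube2c. Replicate 3 was above both unstimulated KLF2- libraries in all 32 genes, which was so for 41.8% of all genes. In CPM, replicate 4 was above both in 14 of the 32 genes (43.8%, against 46.7% of all genes), below both in 12 (37.5%, against 43.1% of all genes and 88.5% of genes of at least 50 CPM) and between them in 6. In TPM it was above both in 24 (75.0%, against 68.5% of all genes), below both in 5 (15.6%, against 21.3%) and between them in 3, so its place depended on the scale. Without stimulated KLF2- replicate 4, edgeR called 24 of the 32 genes higher, against 0.522% of all genes. In that fit the lone stimulated KLF2- library is assumed to vary like the other groups. The 8 not called were Anln, Cenpf, Cenpa, Ndc80, Ttk, Hmmr, Kif2c and Cdc25c. Without stimulated KLF2- replicate 3 edgeR called 0, with 11 of the 32 and 4399 of all genes at an unadjusted p under 0.05, and 17 of the 32 log2 fold changes were below 0 (median -0.020). Background differed between these libraries too, at 6.54 and 35.7% of the reads over the 32 genes in stimulated KLF2- replicates 3 and 4. With background subtracted, and scaling set on genes of 50 CPM or more, edgeR called 0 of the 32 in the KLF2- response. The median log2 fold change was then 1.92 over the 32 genes and 0.13 over all genes. That scaling alone gave 1.76 and 0.45. The part of background in the split between the replicates was not tested.

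**Figure D4:**
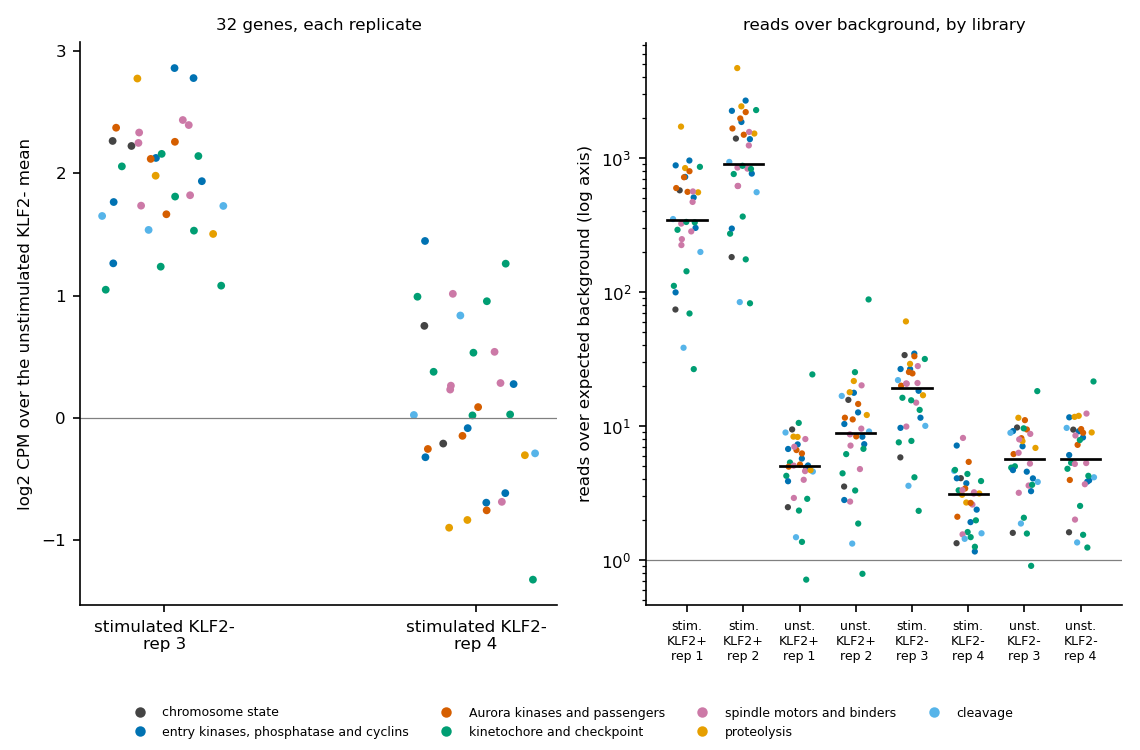
Left, log2 CPM of each mitosis gene in stimulated KLF2- replicates 3 and 4 over its mean in unstimulated KLF2- cells, 1 point per gene coloured by role, with all 32 genes of replicate 3 above the line at 0 and those of replicate 4 on both sides of it. Right, reads over the exons of each gene divided by the background expected there, by library on a log axis, with bars at the medians, 342 and 904 in stimulated KLF2+ cells, 5.07 and 8.88 in unstimulated KLF2+ cells, 19.1 and 3.10 in stimulated KLF2- cells and 5.70 and 5.69 in unstimulated KLF2- cells.

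The split ran through most roles. Top2a was at 219 and 40.5 CPM in stimulated KLF2- replicates 3 and 4 and 49.4 and 44.4 CPM in unstimulated KLF2- cells (log2 fold change 1.47 ± 0.58, SE), so replicate 4 was just under the unstimulated range in CPM. In TPM it was above both, at 14.9 TPM in stimulated KLF2- replicate 4 against 12.7 and 11.1 TPM in unstimulated KLF2- cells. Mki67 was at 73.4 and 25.7 CPM in stimulated KLF2- cells and 15.7 and 14.8 CPM in unstimulated KLF2- cells (log2 fold change 1.71 ± 0.42, SE). Here both stimulated libraries were above both unstimulated ones in CPM. Mki67 reads were 5.83 and 1.33 times background in stimulated KLF2- replicates 3 and 4, and 1.59 and 1.61 times in unstimulated KLF2- cells. Cdk1 was at 62.6 and 19.8 CPM in stimulated KLF2- cells and 17.2 and 15.5 CPM in unstimulated KLF2- cells (log2 fold change 1.34 ± 0.44, SE), with replicate 4 just above the unstimulated libraries. Ccnb1 was at 99.9 and 8.50 CPM in stimulated KLF2- cells and 10.2 and 17.3 CPM in unstimulated KLF2- cells (log2 fold change 1.99 ± 0.78, SE). That is the largest of the 32 fitted responses, and it rests on replicate 3, since replicate 4 was the lowest of the 4 libraries in CPM and lay between the unstimulated ones in TPM. Ccnb2, at 50.9 and 11.98 CPM in stimulated KLF2- cells and 13.7 and 16.2 CPM in unstimulated KLF2- cells, had its replicate 4 below both unstimulated libraries in CPM and above both in TPM (14.9 TPM in stimulated KLF2- replicate 4 against 11.98 and 13.7 TPM in unstimulated KLF2- cells). Cdc25c, at 23.4 and 26.6 CPM in stimulated KLF2- cells and 8.83 and 10.7 CPM in unstimulated KLF2- cells, was the 1 gene with replicate 4 above replicate 3, and both stimulated libraries were above both unstimulated ones.

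Among Aurora and passenger genes, Birc5 was at 105 and 35.3 CPM in stimulated KLF2- cells and 37.0 and 29.4 CPM in unstimulated KLF2- cells, with replicate 4 inside the unstimulated range in CPM and above it in TPM. Aurka was at 47.1 and 7.62 CPM in stimulated KLF2- cells and 11.4 and 6.80 CPM in unstimulated KLF2- cells, with replicate 4 between the unstimulated libraries on both scales. Cdca8 was at 66.9 and 8.28 CPM in stimulated KLF2- cells and 14.9 and 13.1 CPM in unstimulated KLF2- cells, and its replicate 4 was below both on either scale. The smallest fitted response was that of the centromere histone gene. Cenpa was at 61.2 and 11.5 CPM in stimulated KLF2- cells and 27.5 and 30.2 CPM in unstimulated KLF2- cells (log2 fold change 0.35 ± 0.56, SE), so its stimulated libraries lay on either side of the unstimulated ones, as they did in TPM. Cenpf was at 32.3 and 26.8 CPM in stimulated KLF2- cells and 9.76 and 12.6 CPM in unstimulated KLF2- cells, with no overlap. Its stimulated reads were 2.33 and 1.25 times background in replicates 3 and 4, and 0.904 and 1.24 times in unstimulated KLF2- cells.

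Of the spindle genes, Tacc3 was at 93.0 and 16.3 CPM in stimulated KLF2- cells and 22.7 and 29.9 CPM in unstimulated KLF2- cells. Kif2c was at 34.8 and 8.28 CPM in stimulated KLF2- cells and 8.72 and 5.07 CPM in unstimulated KLF2- cells. In CPM, replicate 4 was the lowest of the 4 libraries for Tacc3 and lay between the unstimulated ones for Kif2c. In TPM it lay between the unstimulated ones for Tacc3 and above both for Kif2c. Ube2c, the gene with the largest response in KLF2+ cells, was at 69.6 and 5.45 CPM in stimulated KLF2- cells and 10.5 and 9.84 CPM in unstimulated KLF2- cells (log2 fold change 1.90 ± 0.76, SE). Cdca3 was at 31.3 and 8.93 CPM in stimulated KLF2- cells and 9.99 and 12.1 CPM in unstimulated KLF2- cells. In Ube2c replicate 4 was below both unstimulated libraries on either scale. In Cdca3 it was below both in CPM and above both in TPM, at 11.4 TPM in stimulated KLF2- replicate 4 against 8.97 and 10.6 TPM in unstimulated KLF2- cells. The cleavage gene Kif20a was at 95.0 and 30.7 CPM in stimulated KLF2- cells and 30.0 and 30.4 CPM in unstimulated KLF2- cells, where replicate 4 was above the unstimulated libraries on both scales, by little in CPM. Anln was at 24.1 and 14.8 CPM in stimulated KLF2- cells and 9.88 and 6.70 CPM in unstimulated KLF2- cells, with no overlap. Anln reads were 3.58 and 1.44 times background in stimulated KLF2- replicates 3 and 4, and 1.87 and 1.35 times in unstimulated KLF2- cells.

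The third comparison sets stimulated KLF2+ cells against stimulated KLF2- cells. All 32 mitosis genes were called higher in stimulated KLF2+ cells, and so were 35.5% of all genes tested. The median log2 fold change was 2.88 over the 32 genes and -0.19 over all genes. Both stimulated KLF2+ libraries were above both stimulated KLF2- libraries in all 32 on CPM, which was so in 43.2% of all genes. On TPM they were above in 27 of the 32 and below in 1, Cdc25c, against 14.1% and 74.9% of all genes. Without stimulated KLF2- replicate 4, 30 of 32 were called, all but Anln and Cdc25c, against 31.5% of all genes, and the median log2 fold change was 2.24. Without stimulated KLF2- replicate 3, 31 were called, all but Cdc25c, against 33.1% of all genes, and the median was 4.26. With background subtracted and scaling on genes of 50 CPM or more, 21 of 32 were called, against 16.0% of all genes. The median was then 1.86. The 11 not called there were Anln, Plk1, Kif11, Cenpf, Ttk, Hmmr, Kif2c, Cdc25c, Mki67, Ccnb1 and Top2a. That scaling alone moved the median of all genes to -1.39 and that of the 32 genes to 1.77. It left 26 of the 32 called, against 11.9% of all genes. Of the 8 T cell markers, 7 were also called higher here and 1 was not. The libraries of Cd44 overlapped, at 142 and 175 CPM with KLF2+ against 128 and 164 CPM with KLF2-. Summed over the 8 markers, the KLF2+ pair read 6239 to 6741 CPM, against 2350.4 to 2449 CPM for the KLF2- pair. These CPM carry the TMM factors, 0.630 and 0.626 for the first pair against 1.34 and 1.54 for the second. The size of this gap therefore depends on the scaling. Foxp3 was also called higher in stimulated KLF2+ cells (log2 fold change 1.58, edgeR adjusted p = 0.00265). The part of T cell content, Foxp3 level, depth and background was not tested.

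The 5 largest differences in the fit of all 8 libraries lay within 1 SE of one another. Ube2c had a log2 fold change of 3.51 ± 0.77 (SE; n = 2 in each group; adjusted p = 0.00281), and Cdc20, Ccnb2, Aurka and Ccnb1 were at 3.49 ± 0.65, 3.49 ± 0.52, 3.48 ± 0.61 and 3.48 ± 0.79 (SE). The order differed without stimulated KLF2- replicate 4, with Cdca3 at 2.85, Ccnb2 at 2.82, Aurka at 2.73, Cdc20 at 2.71 and Ube2c at 2.65 (log2). Cdca3 and Cenpa, at 3.46 ± 0.45 and 3.28 ± 0.59 (SE), had adjusted p-values of 0.000330 and 0.00109 in edgeR. Cdk1 was higher by 3.05 ± 0.45, Birc5 by 2.87 ± 0.43, Top2a by 2.57 ± 0.59 and Mki67 by 1.96 ± 0.41 (log2, SE). In TPM the Mki67 libraries overlapped, at 13.7 and 10.9 TPM in stimulated KLF2+ cells and 11.5 and 4.87 TPM in stimulated KLF2- cells. The spindle genes Kif2c and Tacc3 were higher by 2.98 ± 0.57 and 2.90 ± 0.59, and the passenger gene Cdca8 by 3.21 ± 0.66 (log2, SE).

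For Cdc25c and Anln the direction depended on the scale. Cdc25c had the smallest log2 fold change, 1.13 ± 0.39 (SE, edgeR adjusted p = 0.0246). Its direction turned to -0.29 on the log2(TPM + 1) scale and -0.078 when scaled on genes of 50 CPM or more. Cdc25c was at -0.029 with that scaling and background subtracted together. Per length it read 18.4 and 17.7 TPM in stimulated KLF2+ cells and 19.1 and 26.1 TPM in stimulated KLF2- cells. Anln, higher by 1.39 ± 0.42 in edgeR (log2, SE), was at -0.021 on the log2(TPM + 1) scale, with 7.12 and 5.01 TPM in stimulated KLF2+ cells and 7.04 and 5.25 TPM in stimulated KLF2- cells. The other 30 genes kept their direction in every alternative tried, but in TPM the stimulated groups overlapped in Mki67, Hmmr and Ttk. Reads of Anln were 38.3 and 84.0 times background in stimulated KLF2+ cells and 3.58 and 1.44 times in stimulated KLF2- cells, and those of Cdc25c 99.3 and 297 times and 9.68 and 7.14 times. Kif20a was higher by 2.37 ± 0.41 and Cenpf by 1.53 ± 0.29 (log2, SE). In TPM Cenpf differed little, at 4.93 and 4.91 TPM in stimulated KLF2+ cells and 4.58 and 4.58 TPM in stimulated KLF2- cells.

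Summed by role, the entry kinases, phosphatase and cyclins reached 644 and 551 TPM in stimulated KLF2+ cells, 39.0 and 23.4 TPM in unstimulated KLF2+ cells, 251 and 74.4 TPM in stimulated KLF2- cells and 42.9 and 50.6 TPM in unstimulated KLF2- cells. By this sum they were the highest class in both stimulated KLF2+ libraries and in stimulated KLF2- replicate 3. Kinetochore and checkpoint genes had the highest sum in the other 5 libraries. The sums run over classes of unequal size, with 6 entry genes, 8 kinetochore and checkpoint genes and 3 proteolysis genes. The stimulated KLF2- libraries were at unequal levels in every role class. The 3 proteolysis genes summed to 577 and 515 TPM in stimulated KLF2+ cells, 24.7 and 20.4 TPM in unstimulated KLF2+ cells, 209 and 32.4 TPM in stimulated KLF2- cells and 34.1 and 38.5 TPM in unstimulated KLF2- cells. This was the 1 class in which stimulated KLF2- replicate 4 lay below both unstimulated KLF2- libraries. Ube2c had the highest TPM of the 32 in both stimulated KLF2+ libraries, at 318 and 279.7 TPM, and in stimulated KLF2- replicate 3, at 119 TPM. In stimulated KLF2- replicate 4 it ranked 17 of 32, at 11.2 TPM. Behind it in stimulated KLF2+ cells, Ccnb2 (163 and 134 TPM) overlapped with Ccnb1 (178 and 160.0 TPM), Cenpa (159 and 136 TPM) and Cdc20 (156 and 145 TPM). Ccnb1 was above Cenpa and Cdc20 in both libraries, by a narrow margin over Cenpa. Cenpf was the lowest of the 32 genes per length in 7 libraries, and in stimulated KLF2- replicate 4 Plk1 (4.22 TPM) was lower. Cenpf read 4.93 and 4.91 TPM in stimulated KLF2+ cells, 0.828 and 0.312 TPM in unstimulated KLF2+ cells, 4.58 and 4.58 TPM in stimulated KLF2- cells and 1.18 and 1.47 TPM in unstimulated KLF2- cells. Cenpa was the highest in all 4 unstimulated libraries, with 28.2 and 34.9 TPM in KLF2+ cells and 23.8 and 25.4 TPM in KLF2- cells. Hmmr ranked 23 of 32 in each stimulated KLF2+ library, 15 in stimulated KLF2- replicate 3 and 1 in stimulated KLF2- replicate 4.

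**Figure D5:**
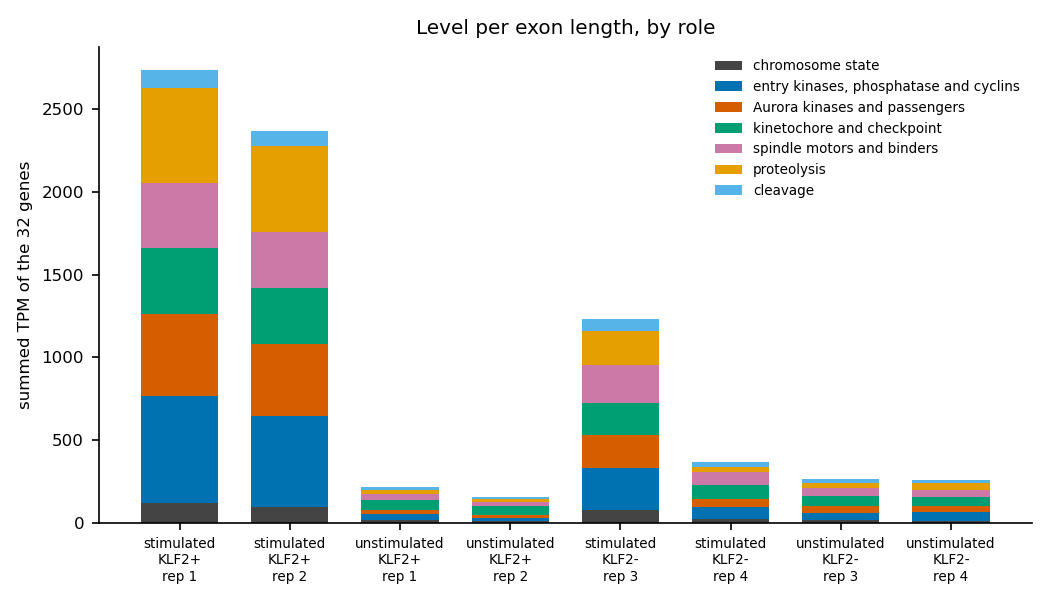
Summed TPM of the 32 mitosis genes in each of the 8 libraries, as stacked bars from 0 with 1 colour for each role class. The bars reach 2739 and 2369 TPM in stimulated KLF2+ cells, 218 and 155 TPM in unstimulated KLF2+ cells, 1232 and 367 TPM in stimulated KLF2- cells and 262 and 257 TPM in unstimulated KLF2- cells.

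The fourth comparison sets unstimulated KLF2+ cells against unstimulated KLF2- cells. No mitosis gene was called, and 2.32% of all genes tested were called in either direction. At an unadjusted p under 0.05, 3 of the 32 and 3672 of the 19146 genes tested passed, and DESeq2 and limma called 0. The median log2 fold change was -0.27 over the 32 genes and -0.11 over all genes. On CPM, both KLF2+ libraries were above both KLF2- libraries in 5 of the 32 genes (15.6%, against 26.2% of all genes) and below both in 14 (43.8%, against 32.8%). On TPM they were above in 1 and below in 20 (62.5%, against 48.6% of all genes). Birc5 had the lowest value, with 17.0 and 13.0 CPM in unstimulated KLF2+ cells against 37.0 and 29.4 CPM in unstimulated KLF2- cells, and its groups did not overlap (log2 fold change -1.15 ± 0.42, SE; edgeR adjusted p = 0.196). Cenpa had the highest, with 36.2 and 61.8 CPM in unstimulated KLF2+ cells against 27.5 and 30.2 CPM in unstimulated KLF2- cells (log2 fold change 0.77 ± 0.55, SE; edgeR adjusted p = 0.450). Without unstimulated KLF2+ replicate 1, Cenpf, Ttk and Cdc25c were called lower, and 8.35% of all genes were called in either direction. Birc5 was called lower without stimulated KLF2- replicate 3 and without stimulated KLF2- replicate 4, where 3.55% and 3.93% of all genes were called in either direction. The 32 genes were low here: in 3 of them in each unstimulated KLF2+ library, and in 4 in each unstimulated KLF2- library, reads were under 2 times background, and the summed level of 10 myeloid markers differed between these groups as given above, with its part not tested.

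The fifth comparison tests whether the response of KLF2+ cells differed from that of KLF2- cells. The response was larger in KLF2+ cells in 31 of the 32 genes, called by edgeR's interaction contrast, which called 20.3% of all genes in that direction. Mki67 missed the threshold (adjusted p = 0.0562). The median difference in log2 response was 2.95 over the 32 genes and -0.09 over all genes. Ccnb2 had the largest, 4.31 ± 0.72, and Mki67 the smallest, 1.57 ± 0.57 (SE). Birc5 differed by 4.02 ± 0.60, Cdca3 by 4.03 ± 0.62, Ube2c by 3.95 ± 1.07, Ccnb1 by 3.56 ± 1.08 and Cdk1 by 2.94 ± 0.61 (log2, SE). Cdca8 and Aurka differed by 3.66 ± 0.92 and 3.42 ± 0.85, Kif2c and Tacc3 by 3.30 ± 0.82 and 3.13 ± 0.81, and Top2a by 2.73 ± 0.81 (log2, SE). At the lower end were Anln, Cdc25c, Kif20a, Cenpf and Cenpa, at 2.02 ± 0.61, 2.19 ± 0.58, 2.48 ± 0.57, 2.51 ± 0.43 and 2.52 ± 0.79 (log2, SE).

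The direction of this difference held in every one of the 32 genes under each alternative tried, and the calls did not. With background subtracted and scaling on genes of 50 CPM or more, Cdca3, Ccnb2 and Birc5 were called, against 3.58% of all genes. The median was 2.29, and it was 2.10 with that scaling alone. Without stimulated KLF2- replicate 4, 29 were called, against 11.1% of all genes, with a median of 2.35. Leaving out an unstimulated library moved the counts further. Without unstimulated KLF2+ replicate 1, 6 of 32 were called (Cenpf, Ttk, Hmmr, Cdc25c, Birc5 and Cenpe), against 1.64% of all genes. Without unstimulated KLF2- replicate 3 none was called, against 0.331% of all genes, although all 32, and 7266 of all genes, were at an unadjusted p under 0.05. Without unstimulated KLF2- replicate 4, Birc5 alone was called, against 0.316% of all genes.

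Other genes of the mitotic pathway were read from a list of 94 (further kinetochore, condensin, spindle, anaphase-promoting complex and G2/M transcription genes), all of which were tested. In KLF2+ cells 86 of the 94 rose with stimulation, 1 fell and 7 were not called, with a median log2 fold change of 2.93. Of all genes, 19.7% were called higher there. In KLF2- cells edgeR called 0, with 48 of the 94 and 2802 of the 19146 genes tested at an unadjusted p under 0.05. DESeq2 called 12 of the 94 higher, against 0.401% of all genes. Between stimulated KLF2+ and KLF2- cells 86 were higher and 1 lower, against 35.5% of all genes called higher. The response was larger in KLF2+ cells in 78 of the 94, against 20.3% of all genes. Spc24, a kinetochore gene of the Ndc80 complex, averaged 153 CPM in stimulated KLF2+ cells and 7.01 CPM in unstimulated KLF2+ cells, a log2 fold change of 4.44 ± 0.22 (SE). Ska1, of the complex that couples kinetochores to microtubule ends, had a log2 fold change of 5.25 ± 0.37, Kif15, a spindle kinesin, of 3.61 ± 0.28 and Mybl2, the B-Myb factor of G2/M transcription, of 3.83 ± 0.27 (SE). In stimulated KLF2+ against stimulated KLF2- cells, Spc24, Ska1 and Mybl2 were higher by 2.37 ± 0.20, 3.35 ± 0.34 and 2.24 ± 0.25, and Kif18a, a kinesin of chromosome alignment, by 2.14 ± 0.23 (log2, SE). For the difference in response, Spc24, Ska1, Ska3 and Mybl2 had values of 3.11 ± 0.28, 3.84 ± 0.50, 3.08 ± 0.41 and 2.66 ± 0.36 (log2, SE).

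One phosphatase gene of the pathway list ran the other way. Cdc25b, which activates cyclin-dependent kinases at the onset of mitosis, averaged 207 CPM in stimulated KLF2+ cells and 408 CPM in unstimulated KLF2+ cells. It was the 1 gene of the 94 that fell there (log2 fold change -0.98 ± 0.28, SE; edgeR adjusted p = 0.0254). In unstimulated cells Cdc25b was the 1 gene of the 94 that edgeR called, where 2.32% of all genes were called in either direction. It averaged 408 CPM in unstimulated KLF2+ cells and 102 CPM in unstimulated KLF2- cells (log2 fold change 2.00 ± 0.29, SE, edgeR adjusted p = 0.00873). DESeq2 called 2 of the 94 higher and 1 lower in unstimulated KLF2+ than in unstimulated KLF2- cells. Kif14, a kinesin of cytokinesis, was the 1 gene of the 94 that was lower in stimulated KLF2+ than in stimulated KLF2- cells, averaging 12.5 CPM in stimulated KLF2+ cells and 34.7 CPM in stimulated KLF2- cells (log2 fold change -1.46 ± 0.42, SE; edgeR adjusted p = 0.0105). Kif14, and Cdc25b in the KLF2+ response, were named after their values were seen.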

How the data were processed

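RNA was sequenced from 8 libraries of sorted mouse CD4 T cells, 2 in each of 4 groups set from the labels. Per the submitters' processing notes, STAR 2.7.9, HOMER 4.11, SAMtools and DESeq2 were used, with builds mm10 and GRCm38, and per the file headers the authors used HOMER to count exon reads per gene. The deposited estimated counts are multiples of 0.5 and were rounded to whole numbers here. The deposited TPM table, also made by the authors, sums to between 503794 and 523430 in a library, so TPM are on the authors' own scale. The sources used here do not state read filters or the handling of strand, so reads from a gene and an antisense neighbour cannot be told apart.

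Genes were kept by filterByExpr in edgeR 4.0.16 (R 4.3.3), and all 8 libraries were fitted together with TMM scaling, 1 coefficient per group and 4 residual degrees of freedom. For the 5 contrasts, p-values came from the quasi-likelihood F test, adjusted by Benjamini-Hochberg over 19146 genes, and called at an adjusted p under 0.05. Standard errors are the absolute log2 fold change over the square root of F, and CPM use TMM factors, which ran from 0.626 to 1.54. The factors were 0.630 and 0.626 in stimulated KLF2+ cells and 1.08 and 0.846 in unstimulated KLF2+ cells. In KLF2- cells they were 1.34 and 1.54 with stimulation and 1.17 and 1.15 without. Background was the read density over 1464 genes of olfactory and vomeronasal receptors (1683.85 kb), times exon length. Alternatives were DESeq2 1.42.0, no filter, limma 3.58.1 on log2(TPM + 1) and log2(TPM + 0.1), and scaling on genes of 50 CPM or more. Further alternatives were background subtraction with that same scaling (15292 genes tested), each library left out, and a replicate block.

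The members and lists were chosen with earlier results of these data known. Values in every library were given for Mki67, Top2a, Cdk1, Ccnb1 and Birc5, for the genes with the highest and lowest mean TPM in each role class, and for those with the largest and smallest log2 fold change in each comparison. Of the other pathway genes, up to 4 called genes with the smallest p were named. The aligned tags per library ran from 33.9 to 45.6 M, and reads over the 32 genes from 2813 to 212824.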

Additional observations from a re-analysis of the deposited data

Results flagged for a closer look

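The difference between the responses of KLF2+ and KLF2- cells, tested as an interaction contrast in edgeR's quasi-likelihood test, passed its threshold in 31 of the 32 mitosis genes. In the same direction it passed in 20.3% of all genes. Among genes read in every library, the difference in log2 response was 4.31 for Ccnb2, 4.02 for Birc5, 3.56 for Ccnb1, 2.94 for Cdk1 and 2.73 for Top2a, each larger in KLF2+ cells. With background subtracted and scaling on genes of 50 CPM or more, Ccnb2 and Birc5 were called and the other 3 were not. In that fit 3.58% of all genes were called in that direction.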

How the results depend on the processing

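The KLF2+ response was called in 32 genes under every alternative but 1, and in 31 to 32 with a library left out. In KLF2- cells the count was 0 in the reported fit, 9 with DESeq2, 24 with a replicate block and 0 to 24 with a library left out, reaching 24 without stimulated KLF2- replicate 4. For stimulated KLF2+ against KLF2- cells it was 21 with background subtracted, 25 to 32 in the other settings and 30 to 32 with a library left out. For unstimulated cells it was 0, and 0 to 3 with a library left out. For the difference in response, called in 31, it was 19 with limma on log2(TPM + 1), 20 with scaling on genes of 50 CPM or more, 3 with background subtracted, 32 with the replicate block and 0 to 32 with a library left out. In the reported fit 19.7, 35.5 and 20.3% of all genes were called higher in the KLF2+ response, the stimulated difference and the difference in response. In the KLF2- response and in unstimulated cells 0 and 2.32% were called in either direction. Shares for the limma and replicate block counts, and for the scaling count of the difference in response, are not given. The background-subtracted fits also used the scaling on genes of 50 CPM or more. Same-numbered libraries share only a number: the deviations of paired libraries correlated at 0.537 in KLF2+ and 0.0865 in KLF2- cells (across genes).

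Directions turned for some genes, and the cause was not tested. In KLF2- cells 17 of the 32 responses were below 0 without stimulated KLF2- replicate 3. With a library left out, the KLF2- log2 response ran from -0.25 to 2.22 for Top2a, from -0.74 to 2.85 for Ccnb1 and from -1.37 to 1.08 for Cenpa, which was at -0.010 with the replicate block. Between stimulated groups, Anln was at -0.021 and -0.025 and Cdc25c at -0.29 and -0.30 with limma (pseudocounts 1 and 0.1), and Cdc25c at -0.078 with scaling on genes of 50 CPM or more and -0.029 with background subtracted. Between unstimulated groups, none of these values was called: Cdk1 was at -0.20 and -0.26 with limma, -0.15 with scaling on genes of 50 CPM or more and -0.041 with background subtracted, and Ccnb1 at 0.028 with DESeq2. With a library left out these ran from -0.27 to 0.012 for Top2a, from -0.11 to 0.38 for Cdk1 and from -0.40 to 0.35 for Ccnb1. Of the single-gene values in the difference in response, 158 of 480 lost their call and 318 did not change side.

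Over the 32 genes, expected background made up 0.307 and 0.115% of reads in stimulated KLF2+ cells, 21.2 and 11.3% in unstimulated KLF2+ cells, 6.54 and 35.7% in stimulated KLF2- cells and 20.2 and 19.0% in unstimulated KLF2- cells. Of the 32, 10 were under 2 times background in stimulated KLF2- replicate 4.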
